A study of Hordeum vulgare with 4 samples.

Results

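Callus of the barley (Hordeum vulgare) cultivar Golden Promise (GP) held 147 genes that were counted in callus of both cultivars and were strongly higher in GP than in DWR91 (D91). They are 147 of the 61598 genes of the transcript assembly, and 147 of the 13714 genes with at least 10 counts in all 4 libraries. The members were chosen by their measured levels: the lower of the 2 GP values had to be at least 3 times the higher of the 2 D91 values, in CPM (counts of a gene scaled to the total of its library). The gap between the cultivars is therefore how the group was made and not a finding about it. The same rule turned round found 118 genes higher in D91.

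RNA from calli of GP and of D91 was sequenced as 2 libraries per cultivar. All calli were 31 days old and had spent 28 days on one medium in the dark and 3 days on another in indirect light, so both cultivars share the media, the light and the age. The labels name no other treatment or genotype, and the series title sets the cultivars against each other for regeneration in culture. No label tells whether replicates were separate cultures, so every spread and p-value given here concerns these libraries and may be technical.

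Callus is a mass of dividing plant cells grown on hormone-containing medium. In cereals it is commonly induced in the dark and then moved to a regeneration medium in the light, where part of the callus turns green as plastids develop into chloroplasts and where shoots can form. GP is a standard cultivar for barley transformation. The assembled genes carry identifiers without names, and 0 of the 147 members matched the 58438 entries of the barley reference table, so no member could be given a function and the callus label could not be checked against marker genes. Groups are therefore described by levels, isoforms, length and position in the assembly, and a pair of members is named.

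The libraries held 1825505 and 1737140 estimated counts in GP, and 1743621 and 3443040 in D91. D91 replicate 2 was the deepest library, so 10 counts stood for 5.48 and 5.76 CPM in the GP libraries, and for 5.74 and 2.90 CPM in D91 replicates 1 and 2. The count minimum shaped the group. In all, 966 genes met the ratio with at least 10 counts in both GP libraries. Of these, 237 had no count in D91, 582 had some D91 counts but fewer than 10 in a library, and 147 were the members. In D91 replicate 1, 74 of the 147 members had under 20 counts, and in D91 replicate 2 it was 43, while no member had under 32 counts in either GP library. The D91 levels of many members thus rest on few reads. With a library left out the rule asks less and can only take more genes: 501 without D91 replicate 1 and 278 without D91 replicate 2.

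The members took 2.25% ± 0.221 of all counts from GP and 0.308% ± 0.0621 of those from D91 (SD, n = 2 each). By library these shares were 2.40% and 2.09% in GP and 0.352% and 0.265% in D91. The 3 members with the most reads in GP took 29.6% and 29.3% of the members' counts in GP and 33.1% and 29.9% in D91, so a few genes carried much of the group in both cultivars. In these bulk samples, fewer cells of a type and less RNA per cell cannot be told apart.

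For comparison between genes, levels are given per transcript length, as the deposited signal (TPM with a scaling factor per library). On that scale the median member stood at 53.6 and 48.2 in GP and at 9.33 and 6.34 in D91. The median of all 13714 genes reaching 10 counts in every library was 17.7 and 17.2 in GP and 18.1 and 19.3 in D91. The members' median percentile among the 13714 genes was 85.3 and 83.9 in GP, and 25.1 and 13.1 in D91. These ranks come from the libraries that chose the members, and the count minimum with the 3-fold gap asks for a higher level in GP than the minimum alone, so they describe the group only. In GP, 117 and 120 of the 147 members lay above the median of the 13714 genes, while in D91 it was 41 and 25. Some members were thus above the middle of the table in D91 too.

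**Figure D1:**
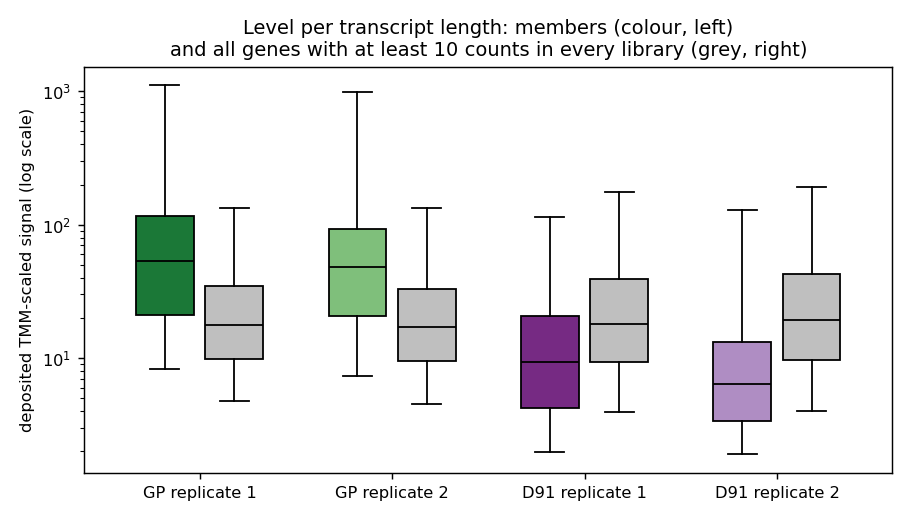
Deposited signal per transcript length (log scale) in each library, for the 147 members (coloured boxes) and for the 13714 genes reaching 10 counts in every library (grey boxes). Boxes span the middle 50% of genes with a line at the median, whiskers reach from the 5th to the 95th percentile; the members' medians of 53.6 and 48.2 in GP lie above the grey medians and those of 9.33 and 6.34 in D91 lie below them.

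Over the 147 members the ratio of the lower GP to the higher D91 CPM had a median of 4.23. It lay between 3 and 4 for 63 members, between 4 and 5 for 31, between 5 and 10 for 42, and at 10 or more for 11. The ratio of the cultivar means had a median of 6.21 and ran from 3.28 to 28.9, beside a median of 1.04 over the 13714 genes. Members and other genes met at the threshold without a gap, since a further 312 genes had a ratio of at least 2 and under 3. The member nearest to the threshold had 29.6 and 25.3 CPM in GP and 6.88 and 8.42 CPM in D91, a ratio of 3.01. The gene nearest below it had 27.4 and 29.4 CPM in GP and 9.18 and 8.13 CPM in D91, a ratio of 2.98.

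**Figure D2:**
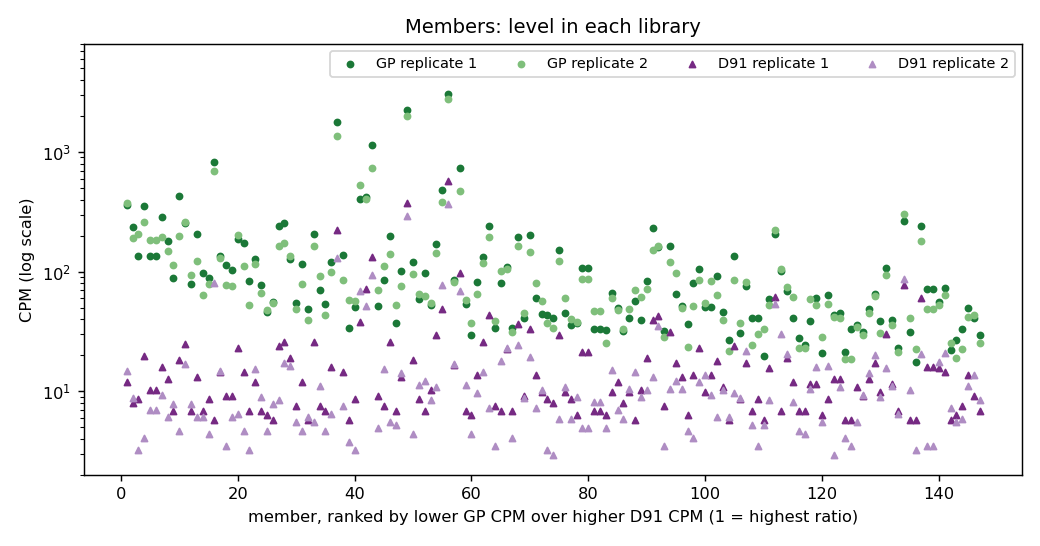
CPM (log scale) of each of the 147 members in GP replicates 1 and 2 (circles) and D91 replicates 1 and 2 (triangles), ordered by the ratio of the lower GP to the higher D91 value. The ratio runs from 24.2 at the left to 3.01 at the right, and the member with the most reads stands at 3067 and 2792 CPM in GP.

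TRINITY_GG_19035_c0_g1 had the highest ratio of all members. It had 358 and 377 CPM in GP and 12.0 and 14.8 CPM in D91, from 654 and 655 counts in GP and 21 and 51 counts in D91. Both cultivars were close between replicates, and the lower GP value was 24.2 times the higher D91 value. The means were 368 ± 13.3 CPM for GP and 13.4 ± 1.96 CPM for D91 (SD, n = 2 each). The fitted log2 fold change was 4.65 with a standard error, derived from the F value of the test, of 0.22 (edgeR quasi-likelihood test, adjusted p = 0.000997). The gene was picked for this same contrast in these libraries, so the p-value only describes it and is no evidence. In the signal per length the gap was wider, with 942 and 1028 in GP and 20.3 and 25.7 in D91.

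The member second by ratio had 236 and 192 CPM in GP and 8.03 and 8.71 CPM in D91, a ratio of 22.1. It had 1 isoform in the assembly. The third had 136 and 205 CPM in GP and 8.60 and 3.20 CPM in D91, a ratio of 15.8. Its replicates lay further apart in both cultivars than those of the first. The members ranked 5 and 6 had the same counts as each other in all 4 libraries, 135 and 183 CPM in GP and 10.3 and 6.97 CPM in D91. They sit at different loci of the assembly and may be near-identical copies that share reads, so they are uncertain as separate genes. In all, 8 members formed 4 such sets of the same counts, and the group holds 143 genes when each set is counted once.

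TRINITY_GG_17082_c0_g1 took the most reads of all members. It had 3067 and 2792 CPM in GP and 570 and 369 CPM in D91, a ratio of the lower GP to the higher D91 value of 4.90. The means were 2929 ± 194 CPM for GP and 469 ± 142 CPM for D91 (SD, n = 2 each). The fitted log2 fold change was 2.54 with a standard error of 0.28 (edgeR quasi-likelihood test, adjusted p = 0.0041). Membership used the same contrast, so this p-value is descriptive only. The gene was abundant in both cultivars, and its fold was near the middle of the group. Per length it stood at 3105 and 2764 in GP and at 626 and 428 in D91, at rank 5 among members by its GP mean.

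The member second by reads had 2263 and 1992 CPM in GP and 375 and 292 CPM in D91. The third had 1794 and 1354 CPM in GP and 221 and 130 CPM in D91. In each of these 3 members the 2 replicates of a cultivar lay much closer together than the cultivars did. The member at rank 5 by reads did not share that pattern: it had 824 and 697 CPM in GP and 5.74 and 79.6 CPM in D91. D91 replicate 1 gave it 10 counts, the lowest number the rule allows, and D91 replicate 2 gave it 274. Its ratio of 8.76 rests on the higher D91 library, and its standard error of 0.89 on a log2 fold change of 3.99 belonged to the highest adjusted p of any member (0.0261, edgeR quasi-likelihood test).

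In the fit over the whole table, 147 of the 147 members were called higher in GP at an adjusted p under 0.05. The background was 9.16% of the 18035 tested genes (1652 genes), and 5.76% of the 13714 genes reaching 10 counts in every library (790 genes). The rule used the same contrast, so nothing is read from the members' share. The members were a part of those 790 genes, and the other 643 fell short of the 3-fold gap. Fitted log2 fold changes of the members had a median of 2.58, from 1.61 to 4.90, with a median standard error of 0.32, beside a median of -0.04 over the 13714 genes. The 1652 genes called over the table became 3133 without D91 replicate 1, 2841 without D91 replicate 2, 449 without GP replicate 1 and 385 without GP replicate 2, and DESeq2 called 763. Of the members, 115 were called without GP replicate 1 and 112 without GP replicate 2.

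The assembly gives most members a single isoform. Of the 147, 44 (29.9%) had several isoforms in the assembly, against 5528 (40.3%) of the 13714 genes. The number of isoforms was not used by the rule, and the difference was not tested. Length itself was not used by the rule either, but the measure of it used here is tied to the contrast. Relative length was taken as counts over signal, each summed over all 4 libraries, and set to 1 at the median of the 13714 genes. D91 replicate 2, the deepest library, gave more counts per unit of signal. Genes with most of their signal in GP therefore come out shorter by this measure. Its median was 0.762 in the members, and 95 of them (64.6%) lay under 1. The middle 50% of members lay between 0.497 and 1.24, against 0.628 to 1.48 in the 13714 genes. In the genes higher in D91 by the same rule, 37 of 118 (31.4%) had several isoforms and the median relative length was 0.897. Library depth moves the measure the other way in such genes, towards longer. The gap between 0.762 and 0.897 is thus partly made by depth, and no difference in length is read from it. The shares of genes with several isoforms were thus close on both sides of the contrast.

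In the 44 members with several isoforms, 82 isoforms had at least 10 estimated counts in both libraries of a cultivar. Of these, 75 were higher in both GP libraries than in either D91 library, 4 were higher in both D91 libraries, and 3 overlapped. In 28 of the 44 members at least 2 isoforms were counted this way. In 14 of the isoforms, from 12 members, there was no count in D91 although the gene was counted there, and 4 isoforms had no count in GP. The members were chosen for high GP and low D91 counts, so an isoform reached the minimum more easily through GP, and nothing is read from these splits. The isoform with the most reads was the same in both cultivars in 30 of the 44 members and another one in 14. Isoforms share reads, so their estimates are less certain than gene totals.

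TRINITY_GG_19035_c0_g1 had 5 isoforms, which differed in their levels between the cultivars. Isoform i5 had 196 and 196 CPM from estimated counts in GP and 6.38 and 11.5 in D91, and it was the leading isoform in every library. Isoform i6 had 111 and 125 CPM in GP and isoform i4 had 50.2 and 53.6, and neither had a count in D91. A count of 0 allows up to 3 counts, or 1.72 and 0.871 CPM in the D91 libraries. By counting error in D91 only, i6 was at least 64.3-fold and i4 at least 29.2-fold higher in GP (lower GP value over the higher D91 limit). These limits do not cover how reads were assigned among isoforms, and the gene had only 21 and 51 counts in D91. Isoform i2 ran the other way, with 2.89 and 1.38 counts in GP and 9.9 and 11.2 counts in D91. It made up 0.442% and 0.211% of the gene's counts in GP and 47.1% and 22.0% in D91, on very few reads.

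**Figure D3:**
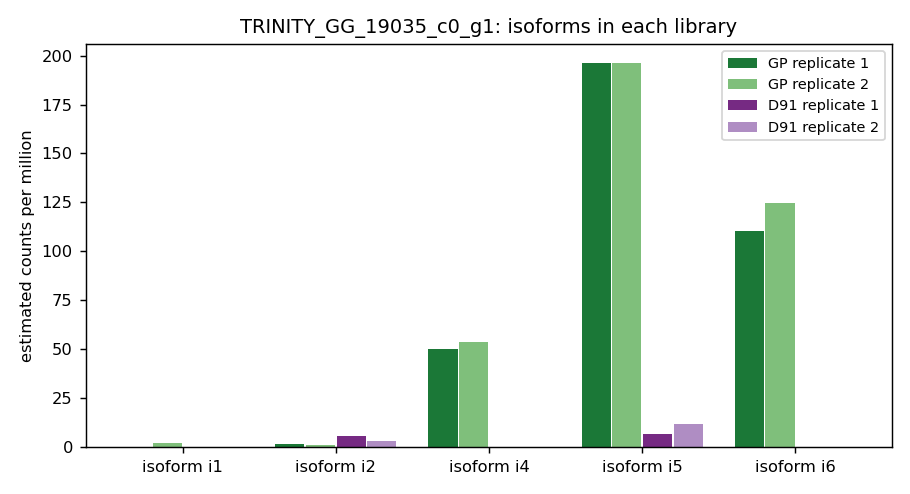
CPM from estimated counts of the 5 isoforms of TRINITY_GG_19035_c0_g1 in each library, 1 bar per library. Isoforms i4 and i6 have bars in both GP libraries (50.2 and 53.6, 111 and 125) and none in D91, while i5 has bars in all 4 libraries.

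The gap was also read in signal per length, which depends on the isoforms that hold the reads. In the deposited signal, 115 of the 147 members kept a lower GP value at least 3 times the higher D91 value, 28 had a ratio between 2 and 3, and 4 had less than 2. Of the 28, 19 had 1 isoform, and among these the ratio in CPM did not exceed 3.44. The 4 members under 2 all had several isoforms, and the lowest ratio was 1.72. One of them had 52.6 and 54.7 CPM in GP and 10.3 and 8.42 CPM in D91, a ratio of 5.09. Its signal was 27.4 and 30.8 in GP and 15.8 and 13.3 in D91, a ratio of 1.73, and its reads lay mostly on different isoforms in the cultivars. For these 4 members the size of the difference depends on whether reads or reads per length are compared.

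Replicates of D91 differed by more than 2-fold in part of the members. D91 replicate 1 was more than 2-fold above D91 replicate 2 in 35 members (23.8%), and the reverse held in 5 (3.40%). Over the 13714 genes these shares were 3.61% (495 genes) and 3.30% (452 genes). In the 118 genes higher in D91 by the same rule they were 7.63% and 2.54%. The shares are not matched for level: the median CPM in D91 was 10.9 and 8.42 in the members, against 27.0 and 27.6 in the 13714 genes. Among the 35 members, GP replicate 1 was also above GP replicate 2 in 31, whereas over all genes this held for 315 of 495 (63.6%). Replicate numbers are not tied to a culture or a day by any label. The rule sets no direction between replicates in its ratio, but its minimum of 10 counts stands for 5.74 CPM in D91 replicate 1 and 2.90 CPM in D91 replicate 2, so members with few D91 counts can be lower in replicate 2 more easily than in replicate 1.

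Of the members higher in D91 replicate 1, the one with the widest gap had 242 and 196 CPM in GP and 43.0 and 7.26 CPM in D91. Its D91 counts were 75 and 25. The next had 153 and 123 CPM in GP and 29.3 and 5.81 CPM in D91. Both were lower in replicate 2 in each cultivar, by 5.92-fold and 5.04-fold in D91 and by 1.23-fold and 1.25-fold in GP. The member ranked 4 by ratio behaved likewise, with 353 and 258 CPM in GP and 19.5 and 4.07 CPM in D91. For such members D91 replicate 1 set the ratio used by the rule, as it did for 100 of the 147 members in all.

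Across the 147 members, which share the same 4 libraries, the log2 ratio of replicate 1 to replicate 2 in GP followed that in D91 with Pearson's r of 0.37 and Spearman's rho of 0.43. Over the 13714 genes the values were 0.07 and 0.08, and over the 118 genes higher in D91 they were -0.09 and -0.13. Replicate 1 was the higher library in both cultivars for 72 members (49.0%), against 26.5% of the 13714 genes. With at least 5.74 CPM asked of every library, 104 members and 13137 genes were left. Among these, D91 replicate 1 was over 2-fold above replicate 2 in 13 members (12.5%) and in 2.53% of genes, and the reverse held in 5 members (4.81%) and in 3.38% of genes. D91 replicate 1 was the higher D91 library, by any amount, in 54.8% of the 104 members, beside 68.0% of the 147, and replicate 1 was higher in both cultivars in 38.5%, beside 49.0%. The difference between the replicates was thus smaller once the same CPM was asked of every library. GP replicate 1 was above GP replicate 2 in 12 of those 13 members, and r was 0.32 over the 104 members and 0.06 over the 13137 genes. This pattern was noticed in the values before it was counted, and its cause was not tested.

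**Figure D4:**
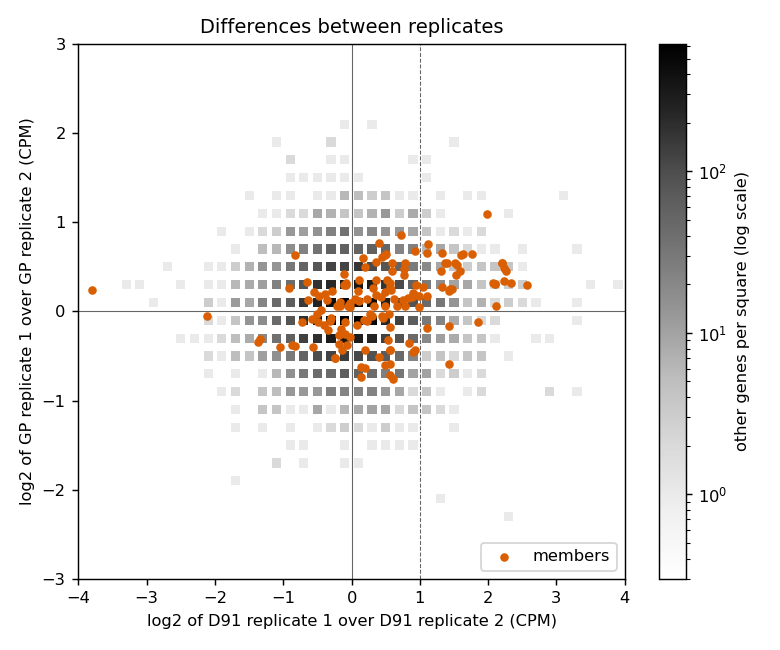
Log2 ratio of replicate 1 to replicate 2 in GP (vertical) against that in D91 (horizontal), from CPM, for the 147 members (orange) over the other 13567 genes reaching 10 counts in every library (grey squares, darker for more genes). The dashed line marks a 2-fold difference in D91; of the 35 members to its right, 31 lie above 0 on the vertical axis.

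The members lay at 142 numbered loci of the assembly, and 9 members shared a locus with another, at 4 loci. With the rule applied to 3 libraries this number, which cannot fall then, was 63 without D91 replicate 1 and 19 without GP replicate 1. At the locus numbers shared by several such genes, 20 genes reaching the count minimum and having counts unlike any other gene sat beside a member, and 9 of them were members themselves. The other 11 had a median log2 ratio of GP to D91 means of 1.52, from -0.07 to 2.11, and 8 of the 11 were over 2-fold higher in GP. Genes of one locus may be pieces of one transcript or share reads. At the locus with 3 members, these had 406 and 529, 84.9 and 112, and 80.5 and 102 CPM in the GP libraries, and 37.9 and 69.4, 7.46 and 15.4, and 6.88 and 17.7 CPM in the D91 libraries. All 3 were higher in replicate 2 of each cultivar, unlike most members.

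Genes at adjoining locus numbers that were not members were counted too. Of the 102 genes that were not members and lay within 1 number of a member, 4 (3.92%) were over 2-fold higher in GP, and their median log2 ratio was -0.01. Within 25 numbers it was 182 of 2377 genes (7.66%). Over all 13270 genes outside the group with unique counts it was 857 (6.46%). No source used here says how the loci were numbered.

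Some members sat near each other. Of 2407 genes with unique counts at other locus numbers within 25 of a member, 30 were members, beside 139 of 13409 over all. Nearness is therefore not read as a trait of the members. Loci were joined where they lay within 25 numbers, a distance chosen after the values were seen, which gave 12 groups. The largest group held 6 members over 34 numbers and the next held 5 over 20, and only these 2 are described. The second group held TRINITY_GG_17082_c0_g1 and the members at ranks 2 and 4 by reads. Its 5 members together had 6576 and 5625 CPM in GP and 1096 and 771 CPM in D91. The 4 other genes among them had log2 ratios from -0.38 to 0.89. In the first group the 6 members together had 997 and 961 CPM in GP and 134 and 92.9 CPM in D91, and the 9 other genes among them ran from -1.92 to 1.94, so genes higher in D91 lay between members.

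**Figure D5:**
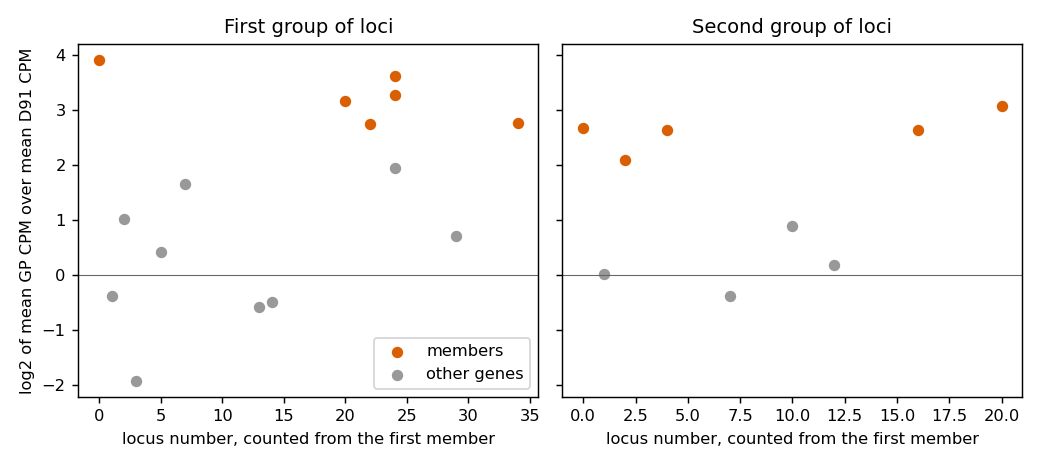
Log2 ratio of mean GP to mean D91 CPM against the locus number counted from the first member, in the 2 groups of nearby loci with the most members (6 over 34 numbers, left, and 5 over 20 numbers, right). Members (orange) and other genes reaching 10 counts in every library (grey) are interspersed, and the grey points run from -1.92 to 1.94 in the first group and from -0.38 to 0.89 in the second.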

How the data were processed

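Per the labels' protocols, column-purified, DNase-treated total RNA was made into libraries with a SMARTER kit for mRNA. STAR, RSEM and DESeq2 are named, with no version, in the submitters' processing notes; a genome build was not given in the sources used here. Of the 4 deposited tables, the authors' isoform table holds expected counts (estimated reads per isoform). The other tables hold a signal made by the authors, TPM-like values scaled per library. The deposited gene table named as counts is such a signal too, in a fixed ratio to the TMM-scaled gene table (coefficient of variation at most 0.00182%), and was not used further. Columns of unmapped samples numbered 0.

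Expected counts were summed per gene and rounded. The quasi-likelihood test of edgeR 4.0.16 (R 4.3.3) was run on all 18035 genes passing filterByExpr (TMM, cultivar only, glmQLFit and glmQLFTest, Benjamini-Hochberg), and the step was tested on simulated data. Fold changes are GP over D91. The test gives no standard errors, so those printed are the absolute log2 fold change over the square root of the test's F value. Members, lists and tests were chosen with earlier results of these data known. The named genes are the member with the highest ratio and that with the most reads in GP; no gene list could be applied, since identifiers carry no names. The smallest p of an exact permutation test of 2 against 2 libraries is 0.333, so none was made. Alternatives used other scalings, filters, DESeq2 1.42.0, limma 3.58.1, a replicate block and leaving out each library. Intervals and limits cover counting error only.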

Additional observations from a re-analysis of the deposited data

How the results depend on the processing

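The size of the group followed its settings. The rule gave 459 genes at 2 times and 84 at 4 times, 281 with at least 5 counts and 60 with at least 20, and 197 to 501 when a library was left out (501 without D91 replicate 1, 278 without D91 replicate 2). The members that shared a locus with another numbered 9, and 11 to 63 when a library was left out. Leaving out a library removes conditions from the rule, so both numbers can only stay or rise, and all 147 members were kept each time. The rule gave 121 genes with TMM-scaled CPM, 117 in the deposited signal (115 of them members) and 114 with libraries thinned to one total (102 of them members). With counts summed per locus it gave 155 loci, and 130 of these were among the 142 loci of the members.

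Over the whole table, 1652 genes were called higher in GP and 1813 in D91. Under library totals, where the median log2 fold change over the table was 0.12 in place of 0.01, the split was 1998 and 1491. The number higher in GP was 734 without a filter, 971 with at least 10 counts in every library, 763 in DESeq2, 781 in limma on the signal with a pseudocount of 0.1, and 385 to 3133 when a library was left out (3133 without D91 replicate 1, 2841 without D91 replicate 2, 449 without GP replicate 1, 385 without GP replicate 2). The no-filter fit split 734 to 1270. A cultivar left with 1 library is taken to vary as the other does. The members called ranged from 112 to 147. Without a filter they were 135, beside 734 of 59947 genes over the table, and in DESeq2 130, beside 763 of 25080. In limma on the signal they were 136 and 112 with pseudocounts of 1 and 0.1, beside 1117 and 781 of 18035 genes. The rule used the same contrast, so nothing is read from the members called. The members' median fitted log2 fold change of 2.58 (the log2 ratio of mean CPM had a median of 2.63) was 2.19 to 2.76 when a library was left out.

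The replicate block called 1408 of 18035 genes and 147 members. The replicate numbers were not taken as pairs, because no label says that they pair libraries across cultivars. Same-numbered libraries deviated together at r = 0.03 over 18035 genes and at r = 0.37 over the 147 members. A value over the whole table does not settle whether the numbers are pairs. Except where the setting itself removes genes or libraries, the cause was not tested. Low counts in D91 limit the members' D91 levels.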
